A study of Mus musculus with 8 samples.

Results

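Peaks of N6-methyladenosine (m6A) were examined on the genes of the cytosolic ribosomal proteins. They were taken as the protein-coding genes of the mouse annotation GENCODE M21 (genome build mm10) whose symbols name a protein of the large subunit (Rpl, Rplp) or the small subunit (Rps, Rpsa), without the Rps6k kinases. The rule gave 83 genes of 22028 protein-coding genes, 51 of the large and 32 of the small subunit. The peaks came from methylated RNA immunoprecipitation sequencing (MeRIP-seq), in which fragments of poly(A) RNA that bind an antibody to m6A (IP) are sequenced beside unselected fragments (input). The cells came from E14, a line of mouse embryonic stem cells that the labels give as embryo tissue, and according to the methods carry a doxycycline (Dox)-inducible Dux transgene and tdTomato under the MERVL promoter. All groups share both transgenes, and DMSO or Dox was given for 24 h. The labels gave 8 libraries, IP and input for each treatment in 2 replicates, but a treatment has only 1 peak list. No value below therefore has a replicate error, no test between the treatments was possible, and each 95% interval (Wilson for shares) covers counting error only. Dox moves only a part of such cells to the 2-cell-like state, and in these bulk libraries fewer cells of a type and less RNA per cell cannot be told apart.

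Ribosomal proteins form the small subunit, which reads the mRNA, and the large subunit, which joins amino acids and carries a flexible stalk that recruits translation factors. Their mRNAs are short, highly abundant and carry a 5′ terminal oligopyrimidine (TOP) tract, through which the mTOR pathway sets their translation, and their genes have left many processed pseudogenes in the mouse genome. m6A is written on mRNA by the METTL3 and METTL14 complex, mostly in the DRACH context with GGAC as its commonest core, and it is known to gather near stop codons and in long exons and to be sparse close to exon junctions.

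Several of the strongest peaks of the family lay on coding exons and ran past an end of the exon, or both ends, into the introns. The sequences below are shown because they carry that pattern. Each is a whole peak on the strand of the gene (mm10, read from the RefSeq GRCm38.p6 genome), with coding bases of the main transcript in capitals and intron bases in lower case. The main transcript of a gene was the one with the longest coding sequence. Splice sites of other transcripts are not marked, so bases in capitals can be intron in another transcript. Bases in lower case can likewise be exon in another transcript, as almost all bases of member peaks lay in annotated exons of the gene.
Rpl41 exon 2, chr10:128548638-128548687, minus strand, both lists: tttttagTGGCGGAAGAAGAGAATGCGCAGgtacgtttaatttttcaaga
Rpl13 exon 5, chr8:123103875-123103974, plus strand, both lists: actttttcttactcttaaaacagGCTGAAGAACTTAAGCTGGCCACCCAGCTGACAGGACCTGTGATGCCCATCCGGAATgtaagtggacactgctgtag
Rpl13 exon 4, chr8:123103162-123103361, plus strand, both lists: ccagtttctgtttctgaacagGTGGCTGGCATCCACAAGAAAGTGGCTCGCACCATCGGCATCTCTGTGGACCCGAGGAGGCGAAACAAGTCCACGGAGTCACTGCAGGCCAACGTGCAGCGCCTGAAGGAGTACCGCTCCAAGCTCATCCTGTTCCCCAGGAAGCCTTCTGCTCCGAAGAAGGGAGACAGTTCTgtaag
Rps19 exon 5, chr7:24888897-24888971, plus strand, both lists: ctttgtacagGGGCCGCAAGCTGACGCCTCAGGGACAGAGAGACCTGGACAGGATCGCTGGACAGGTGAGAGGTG
Rpl13a exon 5, chr7:45126709-45126808, minus strand, both lists: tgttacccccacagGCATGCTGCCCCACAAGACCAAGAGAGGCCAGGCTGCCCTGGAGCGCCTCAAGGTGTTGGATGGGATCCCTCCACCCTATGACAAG
In the first 3 of these peaks an intron end in ag stands before the exon and an intron start in gt after it, so that the peak held a complete coding exon with both of its splice sites. The Rpl41 peak had 23 coding and 27 intron bases, and it held neither GGAC nor any DRACH match. The Rpl13 peak of exon 5 had 57 coding and 43 intron bases with 2 GGAC matches, and the Rps19 peak held 3.

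Ribosomal protein genes carried peaks far more often than other genes. In the DMSO list 70 of the 83 genes (84.3%, 75.02 to 90.6) had a peak, while 27.5% of all protein-coding genes did. In the Dox list it was 64 genes (77.1%, 67.0 to 84.8) beside 22.1%. Both lists held a peak for 63 genes. Both subunits took part, with peaks on 42 (DMSO) and 38 (Dox) large-subunit genes and on 28 and 26 small-subunit genes. Of the 17 members whose human counterparts are mutated in Diamond-Blackfan anaemia, a failure of red cell production, 15 carried a DMSO peak and 14 a Dox peak. Expression was not analysed here, and abundant mRNAs give more reads for the calling of a peak, so that the part of expression in these shares was not tested.

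**Figure D1:**
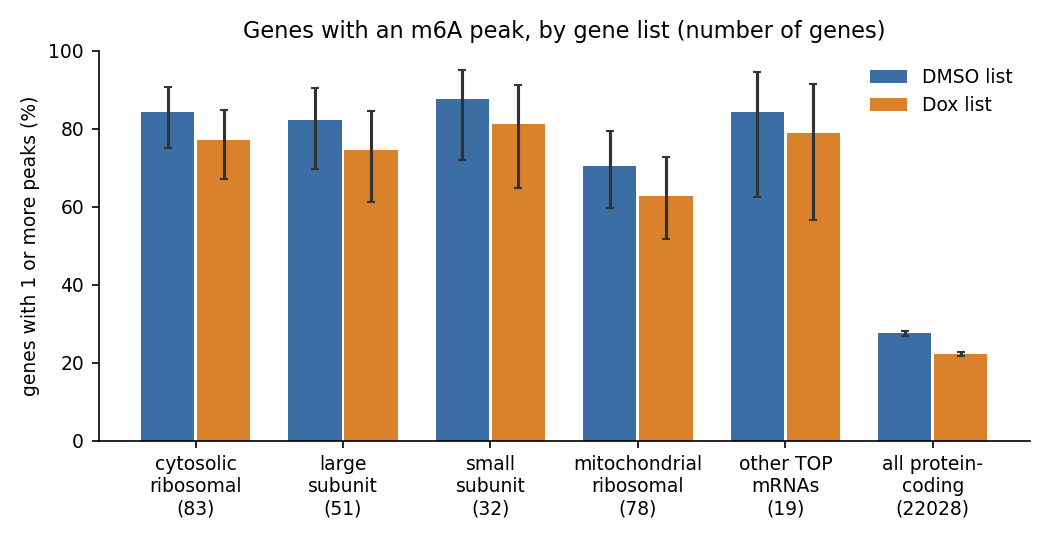
Share of genes with at least 1 peak (vertical axis, %) in the DMSO and Dox lists for 6 gene lists, with the number of genes in brackets and error bars for the 95% Wilson interval of counting error. The cytosolic ribosomal protein genes stood at 84.3% and 77.1%, above all protein-coding genes at 27.5% and 22.1%.

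In neither list was a peak found on 12 members. They included Rplp0, Rplp1 and Rplp2, the 3 proteins of the stalk, and the paralogues Rpl3l and Rpl22l1. The others were Rpl27, Rpl27a, Rpl34, Rpl35a, Rps9, Rps21 and Rps27a, the last of which is made as a fusion with ubiquitin. By contrast both proteins that bind 5S rRNA, and that can also bind the p53 regulator MDM2, carried peaks in each list. Rpl5 had 3 peaks in each, with a best score of 26.9 in DMSO and 32.4 in Dox. Rpl11 had 3 in each, with best scores of 41.1 and 38.6. The score is the authors' value for a peak, read as −log10 of its p-value.

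Member peaks ranked high among all peaks. The median score of the 171 DMSO peaks on members was 17.3, against 11.6 for all 18895 peaks of that list, and the median of the 142 Dox peaks on members was 14.7, against 11.5 for all 13001. Of the member peaks, 59.1% (51.6 to 66.2) lay in the top 10% of the DMSO list and 52.1% (43.9 to 60.2) in that of the Dox list. Among the 100 best peaks, 18 in DMSO and 19 in Dox lay on members, although members carried 0.905% and 1.09% of all peaks. The score grows with the number of reads at a peak, and read depth was not analysed here.

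Rpl41, which codes for the smallest ribosomal protein, had the best peak of the family in both lists. Its score was infinite in each, which a p-value stored as 0 would give. A second peak of 50 nt over the end of exon 1 scored 163.5 in DMSO and 157.1 in Dox. Over exon 3 a peak of 325 nt scored 97.8 and 108.3. These 3 peaks had the same ends in both lists. Only the fourth, upstream of the others, differed, with 50 nt and a score of 12.8 in DMSO and 25 nt and 106.3 in Dox. In each list 128 of the 141 coding bases of the main transcript lay in peaks. That coding sequence, chosen as the longest annotated, has 46 codons before the stop. Whether it is the reading frame of the known protein was not tested.

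Rpl13, a large-subunit protein, carried 4 peaks in each list, with identical ends. From the 5′ end, they scored 13.8, 132.4, 269.6 and 19.7 in DMSO and 15.3, 88.7, 200.5 and 30.2 in Dox. The 2 middle peaks thus scored higher in DMSO and the 2 outer ones higher in Dox. Together they touched all 5 coding exons and covered 615 of 636 coding bases.

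**Figure D2:**
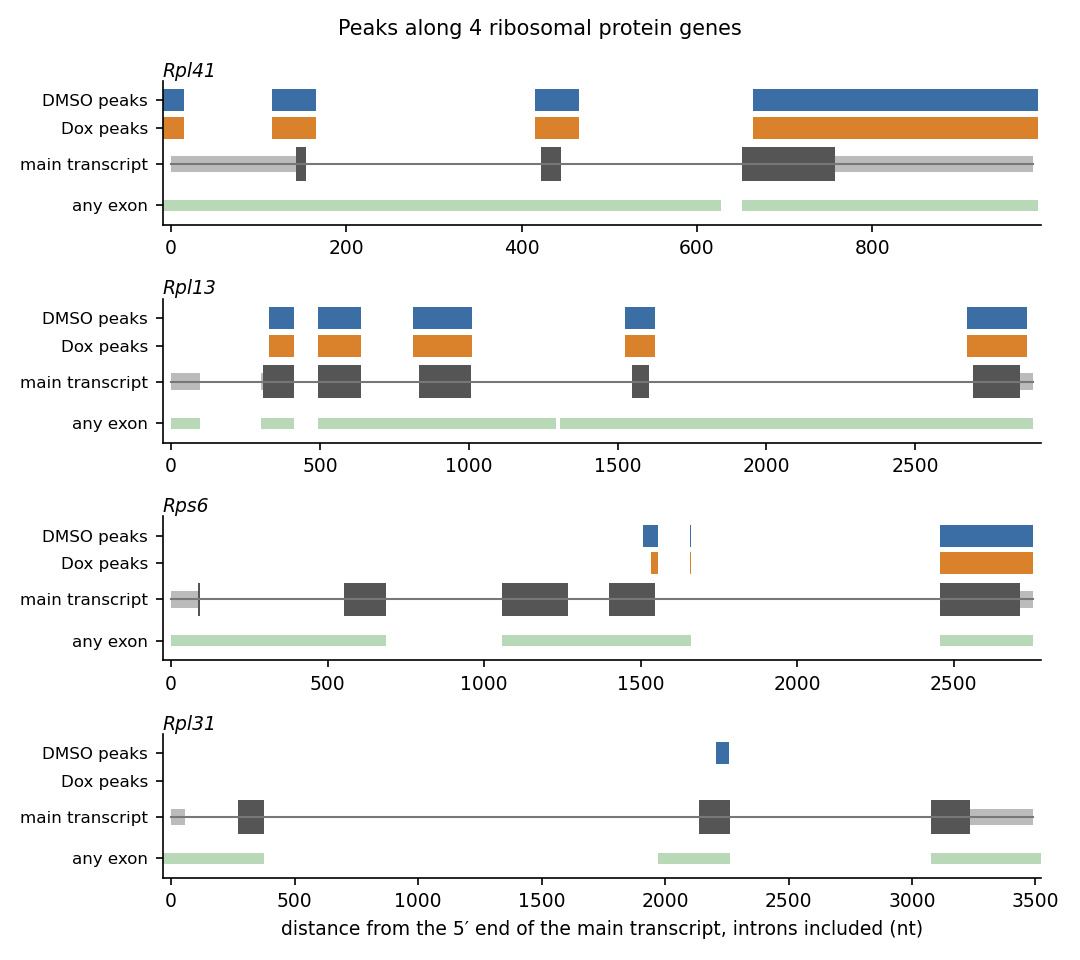
Peaks of the DMSO and Dox lists along Rpl41, Rpl13, Rps6 and Rpl31, with distance from the 5′ end of the main transcript in nt, introns included. Dark grey boxes are coding and light grey boxes untranslated exon parts, and green bars are exons of any annotated transcript of the gene. On Rpl13 the peaks sat on every coding exon and had the same ends in both lists, on Rps6 they lay on 2 of 5 coding exons, and Rpl31 had 1 DMSO peak and no Dox peak.

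Other genes near the top also differed in score between the lists. Rps6, the small-subunit protein that S6 kinase phosphorylates, had a 300-nt peak with the same ends in both lists that scored 83.8 in DMSO and 43.0 in Dox. The Rps19 peak printed above scored 82.5 in DMSO and 25.1 in Dox. For Rps18 the best peak scored 65.3 in DMSO, where 5 peaks covered 96.4% of the main transcript, while the same 200-nt peak scored 16.2 in Dox, where 3 peaks covered 48.8%. The Rpl13a peak went the other way, with 53.8 in DMSO and 73.9 in Dox. Rps15 had the widest cover in the Dox list (94.0% of a 500-nt transcript, 92.8% in DMSO), yet its long peak scored only 12.3 in DMSO and 13.0 in Dox.

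Across the 63 genes that both lists held, the best score was higher in DMSO for 44 and higher in Dox for 18, and it was infinite in both for Rpl41. By number, DMSO peaks were in excess on 23 genes and Dox peaks on 10, and on 30 genes the numbers were equal. Neither count was made over all genes, and the DMSO list is the longer, with 18895 peaks against 13001. Among 122 pairs in which each peak overlapped only the other, the DMSO peak scored higher in 67.2%, close to the 66.1% over all such pairs of the lists. A higher DMSO score was thus about as common on members as over all pairs. The scores of the lists also depend on their read depths, whose part was not tested.

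**Figure D3:**
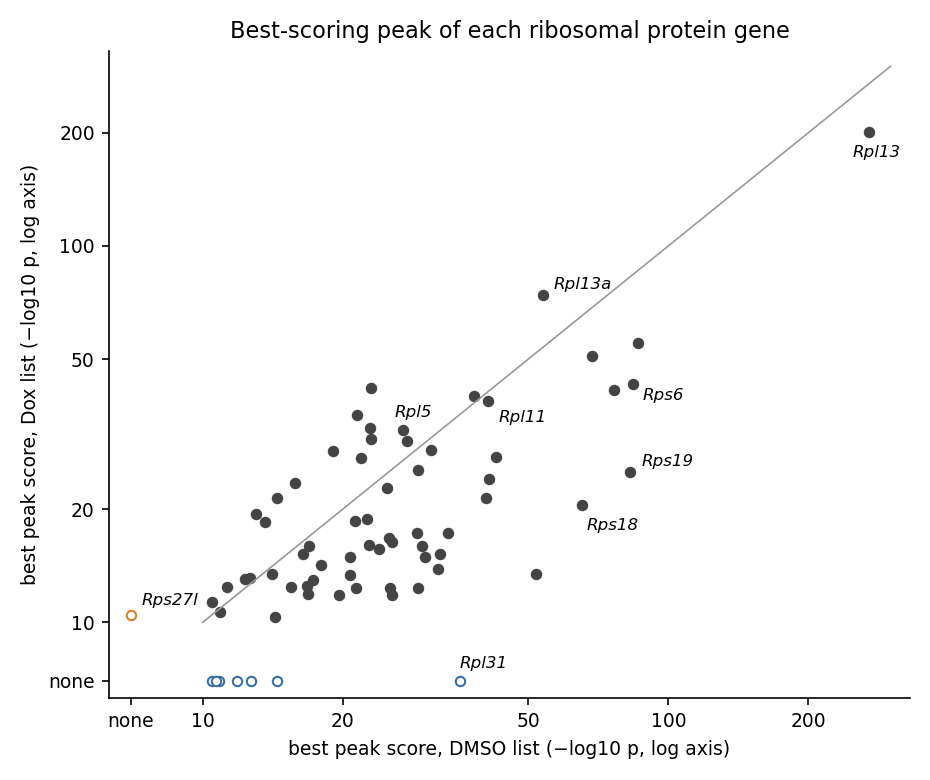
Best peak score of each gene in the DMSO list (horizontal) and the Dox list (vertical), both −log10 p on log axes, with open points at "none" for genes with a peak in 1 list only. Rpl41, infinite in both lists, is not drawn, and of the 62 other genes in both lists 44 lie below the line of equal scores and 18 above it.

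The ratio of DMSO to Dox peaks on members was below that of all peaks, but not beyond its interval. The 171 DMSO and 142 Dox peaks gave a ratio of 1.20 (0.964 to 1.504), against 1.45 (1.42 to 1.49) for all peaks, and the interval of the members includes the overall ratio. With a score of at least 20 the ratio on members was 1.67 (1.14 to 2.44) and 1.79 over all peaks, and with at least 50 it was 1.70 (0.793 to 3.64) and 2.10. The interval of the members included the overall ratio at each of these scores. The intervals of the ratios are not Wilson intervals and take the DMSO and Dox counts as independent, although many peaks of the lists overlap. Of the DMSO peaks on members, 130 (76.0%, 69.1 to 81.8) shared a base with a Dox peak, where the share over all DMSO peaks was 57.0%. With the length distribution of the members, all DMSO peaks would give 45.2%. Score moved with overlap, as overlapped DMSO peaks on members had a median score of 19.8 and the others 13.0, and its part in the higher share was not tested. In the other direction 132 Dox peaks on members (93.0%, 87.5 to 96.1) shared a base with a DMSO peak, beside 92.7% over all Dox peaks. Identical exon blocks were found in 61 of the 134 overlapping pairs (45.5%), and in 12.6% of all pairs. Paired peaks were shorter on members, with medians of 100 nt (DMSO) and 87.5 nt (Dox) against 200 and 150 nt over all. The part of length in the share of identical blocks was not tested. Where lengths differed in the 122 pairs, 52 had the longer peak in DMSO and 9 in Dox, beside 6124 and 973 over all such pairs.

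A DMSO peak without any Dox peak was found on 7 of the 83 genes, beside 6.06% of all protein-coding genes. Most protein-coding genes had no DMSO peak. Among genes with a DMSO peak it was 7 of 70 members and 1334 of 6064 protein-coding genes, a lower share on members. The clearest of the 7 was Rpl31, a large-subunit protein near the exit of the nascent chain tunnel. Its only peak, 50 nt within coding exon 3, scored 35.6 and ranked in the top 1% of the DMSO list, and it is shown as the strongest member peak that 1 list alone held.
Rpl31 exon 3, chr1:39370086-39370135, plus strand, DMSO list: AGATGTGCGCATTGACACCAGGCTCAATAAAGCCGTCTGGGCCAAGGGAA
It held no GGAC and 1 DRACH match, crossed no splice site, and had 14 near-identical copies elsewhere in the genome. The other 6 genes, Rpl6, Rpl8, Rpl9, Rps14, Rps15a and Rps3a1, had best scores from 10.5 to 14.4. A Dox peak without any DMSO peak was found on 1 gene, beside 0.676% of all protein-coding genes. Among genes with a Dox peak it was 1 of 64 members and 149 of 4879 protein-coding genes. The member was Rps27l, a paralogue of Rps27 known as a p53 target, with a 50-nt peak centred in the 5′ untranslated region that scored 10.4.

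Peaks present in 1 list alone were short, and they scored lower than the overlapped peaks on members. The 41 DMSO-only peaks on members had a median of 50 nt, the same as all DMSO-only peaks, and 20 of the 41 were 25 nt long. Scores of the 41 ran from 10.2 to 35.6 with a median of 13.0, against 11.02 for all DMSO-only peaks. After Rpl31 the best were on Rps23 (25.5), Rps24 (24.2), Rps3 (21.9) and Rpl3 (21.4), and each of these genes also carried a Dox peak elsewhere. The 10 Dox-only peaks on members had a median of 25 nt, the same as all Dox-only peaks, and scores from 10.2 to 17.7. Among the best were those on Rpl36 (17.7), Rpl10l (13.1), Rpl3 (12.3) and Rps24 (11.5). Rpl3, a large-subunit protein, had 3 DMSO peaks and 1 Dox peak of 25 nt each, and none of them overlapped.

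The running of peaks across splice sites was measured over all members. In the DMSO list 81 of 171 member peaks (47.4%, 40.0 to 54.8) held a splice site of the main transcript inside an unbroken block, with bases of the exon and of the intron, against 10.1% (9.69 to 10.6) of the peaks on other protein-coding genes. In the Dox list it was 64 of 142 (45.1%, 37.1 to 53.3) against 8.30% (7.83 to 8.79). The 5′ splice site was held by 47 DMSO peaks and the 3′ splice site by 46. Intron bases made up 7.46% of all bases in DMSO peaks on members, with a median of 11 such bases in a crossing peak, and 2.13% on other genes. Crossing peaks on members scored higher than the rest, with medians of 19.9 and 15.8 in DMSO and of 16.8 and 13.5 in Dox. The same order held on other protein-coding genes, with 12.9 and 11.6 in DMSO and 12.8 and 11.4 in Dox. Among the DMSO peaks on members with a score of at least 50, 12 of 17 crossed a splice site, and 8 of 10 did so in the Dox list. The share over all peaks of that score was not computed.

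This pattern went along with the gene annotation. In 48.1% of the 722 splice sites of members an annotated exon of another transcript of the same gene, such as one with a retained intron, runs across the site, while this is so for 11.9% of the splice sites of other genes. All but 3 of the 19160 bases in DMSO peaks on members lay within annotated exons of the gene, those of the main transcript included. Of the 19160 bases, 1429 lay in introns of the main transcript. Where a peak reached a splice site that another exon runs across, it crossed it in 92.1% of 101 cases on members (85.1 to 95.9) and in 88.0% (86.6 to 89.2) on other genes in the DMSO list, and in 92.2% of 77 cases and 87.4% in the Dox list. Crossed sites were counted whether or not another exon runs across them, so these shares are upper values. On that count, crossing given such an exon was about as frequent elsewhere as on members. As almost all bases of member peaks lay in annotated exons, a member peak could hardly cross a site without such an exon. The higher share of crossing peaks on members cannot be told apart from this difference in annotation. DMSO peaks also reached more of the splice sites on members, 28.7% of them against 3.76% on other genes. The part of that difference was not tested.

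**Figure D4:**
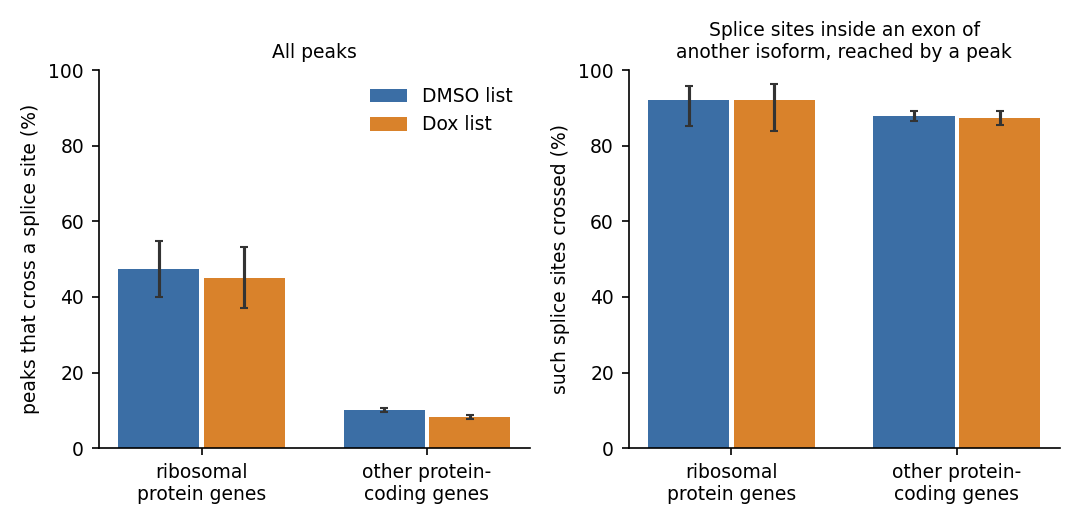
Left, share of peaks (%) that hold a splice site of the main transcript within an unbroken block. Right, share (%) crossed among splice sites that lie inside an exon of another transcript and are reached by a peak, with 95% Wilson intervals of counting error in both. The crossed sites on the right were not limited to those inside such an exon. Members stood apart on the left (47.4% and 45.1% against 10.1% and 8.30%) and much less on the right (92.1% and 92.2% against 88.0% and 87.4%).

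Member peaks lay near stop codons and near exon junctions more often than all peaks, and in DMSO also in coding sequence, on transcripts that are themselves short. The median main transcript of a member was 855 nt long with a coding sequence of 468 nt and a 3′ untranslated region of 89 nt, against 2541.5, 1179 and 725 nt for other genes. Middle bases lay in coding sequence for 84.5% of DMSO peaks (78.1 to 89.3) and 77.6% of Dox peaks (69.8 to 83.8), beside 72.3% and 71.4% over all peaks. The Dox interval includes the share over all Dox peaks. Counted by transcript bases in DMSO peaks, coding sequence made up 78.5% on members and 74.0% on other genes. At most 200 nt from the stop codon were 50.3% (42.7 to 57.9) and 49.3% (40.9 to 57.6), beside 22.9% and 25.1%. That zone makes up 30.4% of the bases of members' main transcripts and 12.1% of those of other genes. Of the transcript bases in DMSO peaks it held 55.4% on members and 22.4% on other genes, above its share of the transcripts on both. An exon junction within 100 nt of the middle base was found for 85.1% of the DMSO peaks (78.8 to 89.8) and 80.6% of the Dox peaks (73.1 to 86.4), beside 39.2% and 32.4% over all peaks. Counted by bases, 74.7% of the members' transcript bases in DMSO peaks lay that near to a junction, above the 55.7% of all their transcript bases. On other genes the order was the reverse, with 30.7% in peaks and 37.2% in all. Peak bases were thus denser near junctions on members and sparser there on other genes.

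The core motif was scarce in member peaks. GGAC was searched on the strand of the peak and found in 45 of 171 DMSO peaks (26.3%, 20.3 to 33.4) and 33 of 142 Dox peaks (23.2%, 17.1 to 30.8), against 54.0% and 55.8% over all peaks. Member peaks are shorter, and all peaks of the same lengths would give 43.7% and 41.8%. Per 1000 nt, DMSO peaks on members held 3.44 matches and Dox peaks 3.36, while all peaks held 6.13 and 6.54. The main transcripts of members held 3.45 per 1000 nt, so that over all scores their peaks were no richer in GGAC than the transcripts, whereas all peaks exceeded the 4.09 of other genes' transcripts. The wider motif DRACH (any base but C, a purine, A, C, any base but G), which takes in GGAC unless a G follows, was found in 74.9% and 71.1% of member peaks, against 80.6% and 78.6% for all peaks of the same lengths. GTCC, the reverse complement of GGAC, was found in 27.5% and 26.8% of member peaks, as often as GGAC itself within the intervals.

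**Figure D5:**
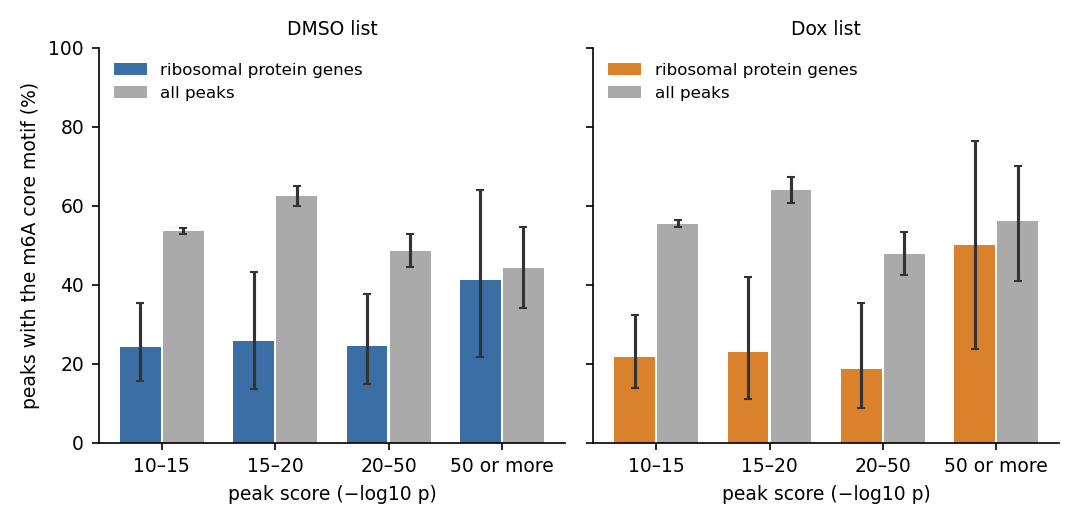
Share of peaks (%) that hold the core motif, by peak score (−log10 p), for the DMSO list (left) and the Dox list (right), with 95% Wilson intervals of counting error. In the 3 classes under a score of 50 the members stood between 18.75% and 25.8% and all peaks between 47.9% and 64.0%, while in the best class the intervals overlap.

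The scarcity held in each class of score under 50. GGAC was in 24.3%, 25.8% and 24.5% of member DMSO peaks that scored from 10 to under 15, from 15 to under 20 and from 20 to under 50. In the 17 DMSO peaks of 50 or more it was in 7 (41.2%, 21.6 to 64.0), against 44.2% of all such peaks. Per 1000 nt this class held 7.47 matches on members and 4.98 over all peaks in DMSO, and 9.23 and 4.78 in Dox, above the 3.45 of the members' transcripts. Member peaks that crossed a splice site held it in 23.5% of cases and the others in 28.9%, where peaks on other genes held it in 46.5% and 55.3%.

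Peaks on the 6 paralogues were longer and weaker than those on the rest of the family, in numbers too small for a comparison beyond description. Of the 6 genes, Rpl7l1, Rpl10l and Rpl39l carried peaks in both lists, and Rps27l in the Dox list alone. Their 7 DMSO peaks had a median of 250 nt, against 75 nt for the 164 other member peaks, and scored at most 14.1. GGAC was in 5 of the 7, and 1 of the 7 crossed a splice site. On Rpl7l1 3 of 4 DMSO peaks lay in the 3′ untranslated region, with scores from 10.6 to 14.1 and GGAC in each. Rpl10l, a retrogene with a single exon that is known for its role in male germ cells, had DMSO peaks of 450 and 150 nt and Dox peaks of 775 and 123 nt, all scored between 11.3 and 13.1.

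Near-identical copies bear on the reading of many member peaks. At least 1 other locus with 98% identity over 90% of the peak was found for 86 of 171 DMSO peaks (50.3%) and 73 of 142 Dox peaks (51.4%), and in 81 and 64 cases it lay in an annotated pseudogene. How the aligner placed reads that fit several loci is not given in the sources used here. Without these peaks 45 member genes kept a DMSO peak and 40 a Dox peak, and the shares of overlapped peaks were 77.6% and 92.8%. The infinite peak of Rpl41 and both printed peaks of Rpl13 had no such copy, and 61.2% of the DMSO peaks without a copy crossed a splice site. The search took whole peaks, intron bases included, and processed pseudogenes lack introns. A peak with many intron bases, such as the 27 of 50 in the Rpl41 peak, could therefore hardly match one. A copy was found for 29 of the 81 crossing DMSO peaks and for 57 of the 90 others. These values thus do not show that the reads of crossing peaks came from 1 locus.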

How the data were processed

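The authors fragmented poly(A) RNA, enriched m6A fragments with an antibody and sequenced IP and input libraries. Per the labels and the submitters' processing notes, reads were filtered with fastp 0.19.4 and aligned to mm10 with HISAT2 2.2.1. According to the methods, peaks were called with exomePeak2, whose version and settings, and the way replicates were combined, are not given in the sources used here. The deposited lists hold exon blocks, strand and a value read as the authors' −log10 p-value (every value at least 10, with 3 infinite in DMSO and 1 in Dox). Whether it was adjusted is not stated. Read depth and counts were not analysed here, so the depth behind a peak is unknown.

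Peaks were put on a gene when 1 exonic base was shared on the same strand. Inner block edges of spliced member peaks lay at annotated exon edges in 126 of 126 cases (DMSO) and 100 of 100 (Dox), a check of the build. A splice site was held by a peak when a block had bases on both sides of it. Loci near-identical to a peak were found by blastn 2.17.0 on the primary sequences of GRCm38. Wilson intervals came from Python 3.11.15 with scipy 1.17.1, and figures from matplotlib 3.10.9. The overlap, gene, position and splice site steps were checked on simulated peaks.

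The members, gene lists, naming rule and alternatives were chosen with earlier results of these data known. Genes named were Rpl41, Rpl13 and Rpl31, those of the 8 best and the 5 best list-only member peaks of each list, the 5 most covered in each list, Dox-only genes, paralogues, the stalk, the 5S proteins and members without any peak. Rpl6, Rpl8, Rpl9, Rps14, Rps15a and Rps3a1 are outside that rule, and were named after their values were seen. Some genes that the rule names are not reported here. Alternatives covered the score threshold, list size, overlap, strand, introns, transcript, window, motif, paralogues, short peaks and near-identical loci.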

Additional observations from a re-analysis of the deposited data

How the results depend on the processing

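Of 72 alternatives over 14 results, 45 left the value within its interval (or, for a count, within 1.5 times) and 27 moved it. With a score of at least 15, member genes with a Dox peak numbered 41, member peaks 101 in DMSO and 68 in Dox, and the overlapped shares were 53.5% for DMSO and 79.4% for Dox. With a score of at least 20 the genes numbered 44 and 27, the peaks 70 and 42, and the shares across a splice site were 57.1% and 66.7%. Without peaks with a near-identical locus the genes numbered 45 and 40, the peaks 85 and 69, and the shares across a splice site were 61.2% and 59.4%. That filter spared crossing peaks more often, as a copy without introns could hardly match them. Requiring 50% of the DMSO peak gave an overlapped share of 66.7%, and 50% of both peaks gave 64.9% and, for Dox peaks, 78.2%. Equal list sizes gave a Dox share of 85.2%. Without peaks of 25 nt or shorter the overlapped shares were 85% and 96.3%. DRACH in place of GGAC gave 74.9% and 71.1%, and a window of 100 nt at the stop codon gave 36.02% and 38.1%. The shares across a splice site and their alternatives were added after the data were seen.

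No paired analysis was possible because no peak list exists here for a single replicate, only 1 per treatment. Without replicate values, depth or expression, differences between the lists cannot be set against biological spread, and scores at 10 or just above lie at the lower end of what was deposited.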

Other observations

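Genes that share parts of the family's biology gave a mixed picture. Of 19 other TOP mRNAs, among them translation factors such as Eef1a1, Eef2 and Pabpc1, peaks were found on 16 (DMSO) and 15 (Dox), with median peak scores of 16.8 and 15.3, near the 17.3 and 14.7 of the cytosolic ribosomal protein genes. Npm1, a nucleolar chaperone of ribosome assembly, had an infinite score in DMSO and 186.7 in Dox. The 78 genes of the mitochondrial ribosome carried a peak in 70.5% of cases in DMSO (59.6 to 79.5) and 62.8% in Dox (51.7 to 72.7), but their median scores, 11.8 and 11.5, were those of an average peak. Of the ribosomal proteins that the symbol rule does not reach, Fau and Rack1 had no peak in either list. Rpl36al had 2 peaks in each list with best scores of 69.0 and 67.5.

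Of 294 annotated pseudogenes named after ribosomal proteins, 1 carried a peak, in both lists. It was Rpl14-ps1, a processed pseudogene on chromosome 7, with 200 nt and a score of 30.7 in DMSO and 175 nt and 39.6 in Dox. Another gene of the same strand shared exonic bases with 11 DMSO and 9 Dox peaks on members, and which gene their reads came from was not tested.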
